A study of Homo sapiens with 4 samples.

Results

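Iron uptake, storage and ferritinophagy were followed through 9 genes, chosen by name from the 35371 gene symbols of the deposited table: TFRC, STEAP3, SLC11A2 and SLC39A14 for uptake, FTH1 and FTL for storage, NCOA4 for ferritinophagy, and IREB2 and ACO1 for iron sensing. All 9 were found, and each averaged 1 TPM or more, the limit for testing. Polyadenylated RNA was measured by RNA-seq in A2780, a human line of ovarian cancer cells kept in monolayer culture in serum-containing medium. The comparison is between 2 libraries of controls and 2 libraries of cells treated with GD-07, a small molecule that the series text describes as a MYC inhibitor. For the controls the sample labels list no treatment, whereas the series text names a vehicle, and neither the dose nor the time is stated. Values are TPM, which correct for transcript length and scale each library to its total, so that the amount of RNA per cell cannot be seen. The unit loses the read depth, which is therefore unknown, and counting intervals cannot be given. Nothing in the labels tells whether replicates were grown separately. The p-values then reflect only the spread among these 4 libraries, which may be technical.

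Cells take up transferrin-bound iron through the transferrin receptor TFRC, release it in the endosome, reduce it with STEAP3 and move it to the cytosol with SLC11A2. Surplus iron is stored in ferritin, a shell of FTH1 and FTL chains, and is set free again when NCOA4 delivers ferritin to the lysosome. The RNA-binding proteins encoded by ACO1 (IRP1) and IREB2 (IRP2) sense iron. When iron is scarce they bind stem-loops called iron-responsive elements, which blocks translation of ferritin mRNA and stabilises TFRC mRNA. TFRC has been described as a target that MYC activates, and in other cells MYC has been reported to repress FTH1 and to activate IREB2.

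The iron-responsive elements are shown because they set apart the 3 members whose mRNAs the sensors are best known to bind. GENCODE 29 transcripts on GRCh38 were searched on the transcript strand for CNNNNNCAGTGN followed by 5 bases able to pair with the 5 before the loop, G-T pairs allowed. Capitals mark the bulged C and the 6-base loop, and each window carries 6 further bases on either side. One match lay in the 5′ UTR of FTH1 (chr11:61967574-61967602, minus strand), 1 in the 5′ UTR of FTL (chr19:48965335-48965363, plus strand) and 4 in the 3′ UTR of TFRC (minus strand, in order chr3:196050979-196051007, chr3:196050575-196050603, chr3:196050510-196050538 and chr3:196050463-196050491).
FTH1 5′ UTR: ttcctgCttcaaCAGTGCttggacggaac
FTL 5′ UTR: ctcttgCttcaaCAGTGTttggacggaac
TFRC 3′ UTR, match 1: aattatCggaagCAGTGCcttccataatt
TFRC 3′ UTR, match 2: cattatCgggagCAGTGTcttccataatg
TFRC 3′ UTR, match 3: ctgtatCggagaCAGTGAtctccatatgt
TFRC 3′ UTR, match 4: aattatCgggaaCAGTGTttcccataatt
The FTH1 and FTL windows share 26 of 29 bases, including all 5 of the upper stem, whereas the TFRC windows have other stems around the same first 5 loop bases, CAGTG. The first 100 bases of the 5′ UTR held a match in 4 of 13586 protein-coding genes (0.0294%). These were FTH1 and FTL themselves, CCDC116 and GART. Windows of 533 bases, the span of the TFRC matches, held one in 0.197% of 46701 tiled over 3′ UTRs. TFRC was the only one of 19537 genes with as many as 4 matches in its 3′ UTR. The reference transcripts searched for the other 6 members held no match. These letters miss elements with another loop or a less regular stem, so the count in any gene, TFRC included, may be too low.

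The libraries differed in composition. Mitochondrially encoded transcripts made up 2.52% to 4.36% of TPM in 3 libraries and 6.52% in GD-07 replicate 2, which also had the most entries listed at 0 (14683, against 11598 to 12346). The replicates of each group correlated at r = 0.993 (control) and r = 0.982 (GD-07) across genes on the log2 scale. MYC mRNA was at 86.0 and 67.5 TPM in control cells and 29.1 and 23.6 TPM in treated cells. Of 10 epithelial and ovarian carcinoma markers only KRT18 and EPCAM reached a mean of 1 TPM. PAX8 stayed under 0.2 TPM in every library, and WT1 and ESR1 were each at 0 in at least 2 libraries. Most of the markers listed for the labelled cell type were thus low. None of 8 hepatocyte markers reached a mean of 1 TPM, and of 9 macrophage markers 3 did, with sums of 9.72 to 11.7 TPM in the controls and 7.96 to 10.9 TPM with GD-07. Of 11 erythroid markers only the erythropoietin receptor EPOR did, and the list summed to 46.5 to 53.5 TPM in the controls and 73.1 to 77.4 TPM with GD-07. EPOR alone made up nearly all of it, at 50.5 and 43.1 TPM in control cells and 74.9 and 70.1 TPM in treated cells. It did not pass (limma adjusted p = 0.0501). The 7 fibroblast markers, 6 of them above the limit, summed to 129.7 to 152.2 TPM in the controls and 74.8 to 96.1 TPM with GD-07. Most of that sum was THY1, a surface glycoprotein and the one marker of these lists that passed, at 95.7 and 85.1 TPM in control cells and 48.7 and 54.6 TPM in treated cells (log2 fold change -0.80, limma adjusted p = 0.0276). The part of these shifts in the results was not tested.

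Of the 9 genes, TFRC and STEAP3 fell with GD-07. None rose, and the other 7 (SLC11A2, SLC39A14, FTH1, FTL, NCOA4, IREB2 and ACO1) did not pass, by limma on log2(TPM + 1) with Benjamini-Hochberg adjusted p under 0.05 over all 13063 genes tested. Here and below, rose and fell mean past this threshold, and not passing does not show that a gene was unchanged. Over all genes tested 5.21% passed, 2.02% higher and 3.19% lower, and this split was 383 higher and 395 lower after quantile normalization, against 264 and 417. At an unadjusted p under 0.05 there were 3 of the 9, against 24.8% of all genes. The values of the groups did not overlap for 5 of the 9 genes, 3 higher (FTH1, FTL and ACO1) and 2 lower, a share near the 55.8% of all genes tested (25.3% higher and 30.5% lower). The median log2 fold change of the members was 0.18, compared with -0.04 over all genes tested. With 2 libraries against 2 an exact two-sided permutation test cannot give a p below 0.333, so none was run.

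**Figure D1:**
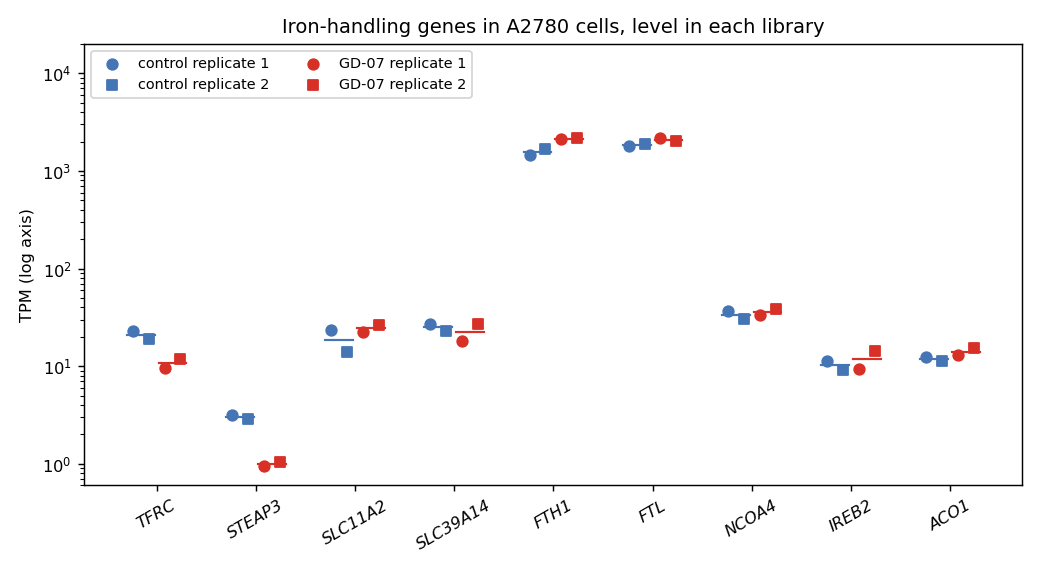
Level of each of the 9 genes in each library, in TPM on a log axis, with blue for control and red for GD-07, circles for replicate 1, squares for replicate 2 and short lines for group means (n = 2 each). TFRC and STEAP3 lie lower in both GD-07 libraries than in both controls, and the ferritin genes FTH1 and FTL lie far above all others.

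TFRC, the receptor that brings transferrin into the cell, was at 22.8 and 18.8 TPM in control cells and 9.60 and 11.9 TPM in treated cells. Both GD-07 libraries lay below both controls, and the gap between the groups was wider than the gap within either. TFRC (ENSG00000072274, chromosome 3, 196027183 to 196082189, minus strand) thus went from 20.8 ± 2.86 to 10.8 ± 1.65 TPM (SD, n = 2 each), 1.93-fold lower. On the log2(TPM + 1) scale of the test, which gives a smaller change than the ratio of means, the difference was -0.89 ± 0.19 (standard error by limma, adjusted p = 0.0369). The direction held under each alternative setting, with log2 fold changes from -1.03 to -0.71, but the call did not. Leaving out control replicate 1 ended it (-0.76, limma adjusted p = 0.190), as did fitting without limma's intensity trend (0.0534), after rescaling without mitochondrial and top 10 entries (0.0629) and with no filter on low values (0.223).

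STEAP3, the endosomal ferrireductase that turns ferric into ferrous iron, was the least abundant of the 9. It was at 3.15 and 2.87 TPM in control cells and 0.958 and 1.04 TPM in treated cells. The replicates of each group lay close together and the groups were well apart. STEAP3 (ENSG00000115107, chromosome 2, 119223831 to 119265652, plus strand) went from 3.01 ± 0.192 to 0.999 ± 0.0574 TPM (SD, n = 2 each), 3.01-fold lower. Adding 1 TPM before the logarithm shrinks the change of so low a gene, and the log2 fold change was -1.0 ± 0.21 (limma adjusted p = 0.0332). With 0.1 TPM added in place of 1 it was -1.50, and with 5 TPM added it was -0.42, and the gene passed both times. STEAP3 was kept for testing through its level in the controls, since the GD-07 mean alone was under 1 TPM. The call was lost when either control was left out (limma adjusted p = 0.147 without replicate 1 and 0.0544 without replicate 2) and with no filter on low values (0.221).

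SLC11A2 (DMT1), which carries ferrous iron out of the endosome, was at 23.3 and 13.8 TPM in control cells and 22.4 and 26.5 TPM in treated cells. The groups overlapped, because control replicate 1 lay above GD-07 replicate 1. Its log2 fold change was 0.42 with a 95% interval from -0.12 to 0.96 (limma adjusted p = 0.311). One control library decided the size, with 0.77 without control replicate 1 and 0.06 without control replicate 2. SLC11A2 (ENSG00000110911) lies on chromosome 12 from 50979401 to 51028566 on the minus strand. Transcript forms with and without an iron-responsive element are known for this gene, and a value per gene symbol cannot separate them.

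SLC39A14 (ZIP14), a zinc and iron importer at the cell surface, was at 27.1 and 22.9 TPM in control cells and 17.9 and 27.2 TPM in treated cells. The GD-07 libraries lay on either side of the controls. The log2 fold change was -0.16, with a 95% interval from -0.65 to 0.32 (limma adjusted p = 0.673). Leaving out GD-07 replicate 2 gave -0.45 and leaving out GD-07 replicate 1 gave 0.12, so its sign rested on which GD-07 library was kept. The gene (ENSG00000104635) lies on chromosome 8 from 22367249 to 22434129 on the plus strand.

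**Figure D2:**
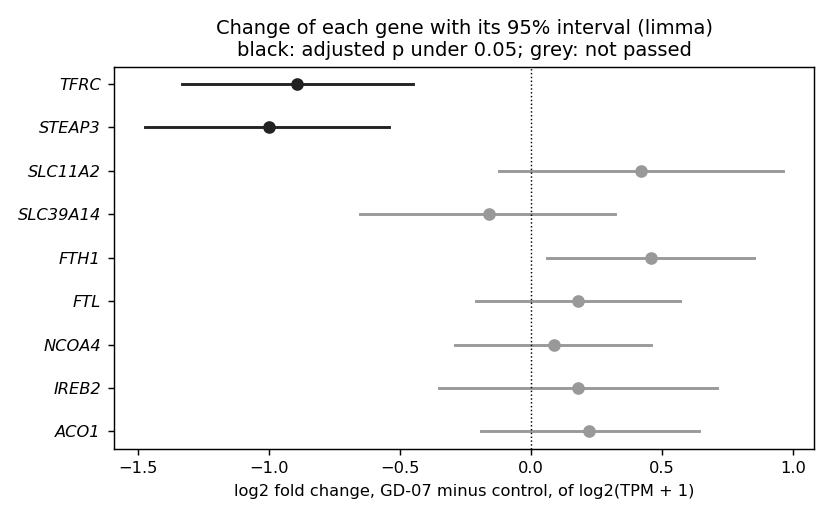
Log2 fold change of each gene (GD-07 minus control, on log2(TPM + 1)) with its 95% interval from limma, n = 2 libraries in each group. Black marks TFRC and STEAP3, which passed at an adjusted p under 0.05, and the intervals of the 6 genes other than these and FTH1 include 0.

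FTH1, the ferritin heavy chain that oxidises iron for storage, was at 1449.9 and 1668 TPM in control cells and 2108 and 2169 TPM in treated cells. Both GD-07 libraries lay above both controls. The means were 1559 ± 154.0 and 2138 ± 43.4 TPM (SD, n = 2 each), a ratio of 1.37. The log2 fold change was 0.46 ± 0.17 with a 95% interval from 0.06 to 0.85, and it did not pass (limma adjusted p = 0.148). FTH1 (ENSG00000167996) lies on chromosome 11 from 61959718 to 61967660 on the minus strand.

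FTL, the ferritin light chain that helps the iron core to form, was at 1795 and 1894 TPM in control cells and 2169 and 2020.4 TPM in treated cells. The groups did not overlap, but the gap between them was narrower than the spread within GD-07. The log2 fold change was 0.18 ± 0.17, with a 95% interval from -0.21 to 0.57 (limma adjusted p = 0.548). FTL (ENSG00000087086) lies on chromosome 19 from 48965301 to 48966878 on the plus strand. Together the 2 ferritin chains took 0.353% and 0.388% of the table's TPM in the controls and 0.469% and 0.456% with GD-07.

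Processed copies of both ferritin genes could share reads with them. The table holds 25 rows of FTH1 pseudogenes and 16 of FTL pseudogenes, of which 6 and 2 were kept for testing and none passed. The FTH1 copies summed to 14.0 and 13.0 TPM (controls) and to 14.4 and 8.39 TPM (GD-07), at most 0.966% of FTH1 in any library. The FTL copies summed to 2.23 to 4.35 TPM, at most 0.243% of FTL. FTH1P10, FTH1P11 and FTH1P8, the 3 most abundant copies, were lowest in GD-07 replicate 2, at 0.434, 0.658 and 0.948 TPM, against 1.71 to 2.85 TPM in the other libraries. FTLP12 and FTLP3, the 2 FTL copies above the limit, had values of -0.36 and -0.33 on the log2 scale (limma adjusted p = 0.389 and 0.370), of opposite sign to FTL.

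NCOA4, the receptor that carries ferritin to autophagosomes, was at 36.9 and 30.7 TPM in control cells and 33.7 and 38.2 TPM in treated cells. The libraries of the 2 groups alternated in order, with no separation. Its log2 fold change was 0.09, with a 95% interval from -0.29 to 0.46 (limma adjusted p = 0.780). NCOA4 (ENSG00000266412) lies on chromosome 10 from 46005088 to 46030714 on the minus strand.

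IREB2, the sensor that is degraded when iron is ample, was at 11.3 and 9.05 TPM in control cells and 9.34 and 14.4 TPM in treated cells. The GD-07 pair was wider apart than the group means, and its log2 fold change was 0.18 with a 95% interval from -0.35 to 0.71 (limma adjusted p = 0.672). ACO1, which switches between aconitase and RNA-binding forms, was at 12.6 and 11.2 TPM in control cells and 12.9 and 15.2 TPM in treated cells. Its groups met without overlapping, and the log2 fold change was 0.22 with a 95% interval from -0.19 to 0.64 (limma adjusted p = 0.489). IREB2 (ENSG00000136381) lies on chromosome 15 from 78437431 to 78501456 and ACO1 (ENSG00000122729) on chromosome 9 from 32384603 to 32454769, both on the plus strand.

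In the controls the order of levels, on the TPM scale per length, was FTL, FTH1, NCOA4, SLC39A14, TFRC, SLC11A2, ACO1, IREB2 and STEAP3. FTL and FTH1 did not overlap in the controls but did with GD-07. TFRC and SLC11A2 overlapped in the controls and changed order between the 2 libraries at 22.8 against 23.3 TPM and 18.8 against 13.8 TPM. ACO1 and IREB2 also overlapped in range, although ACO1 was the higher of the 2 within each control library. SLC39A14 and TFRC were separated only by 22.9 against 22.8 TPM, and the other neighbours did not overlap. With GD-07 TFRC lay below SLC11A2, SLC39A14 and ACO1 in both libraries and overlapped IREB2 in range. The ferritin chains ranked 71 and 76 among all entries of the table by mean TPM, and STEAP3 ranked 11679.

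Ratios within a library do not depend on how that library was scaled. The TPM ratio of TFRC to FTH1 sets an uptake mRNA over a storage mRNA and does not measure iron. It was 0.0157 and 0.0113 in the controls and 0.00456 and 0.00550 with GD-07. Both GD-07 values lay below both controls, and the mean difference was -1.41 on the log2 scale, with SDs of 0.34 (control) and 0.19 (GD-07). It ranged from -1.65 to -1.17 when any 1 library was left out and was -1.41 with the pseudogene rows added. The ratio of FTH1 to FTL was 0.808 and 0.881 in the controls and 0.972 and 1.07 with GD-07, so the heavy chain was the more abundant of the 2 only in GD-07 replicate 2. Its mean difference was 0.28 on the log2 scale, with SDs of 0.09 and 0.10.

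The ratio of NCOA4 to FTH1 was 0.0255 and 0.0184 in the controls and 0.0160 and 0.0176 with GD-07. The groups did not overlap, but control replicate 2 lay nearer to the GD-07 libraries than to control replicate 1, and the difference of -0.37 was -0.13 without control replicate 1. The ratio of IREB2 to ACO1 was 0.901 and 0.807 in the controls and 0.724 and 0.942 with GD-07, and the groups overlapped. No test was made of these ratios.

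**Figure D3:**
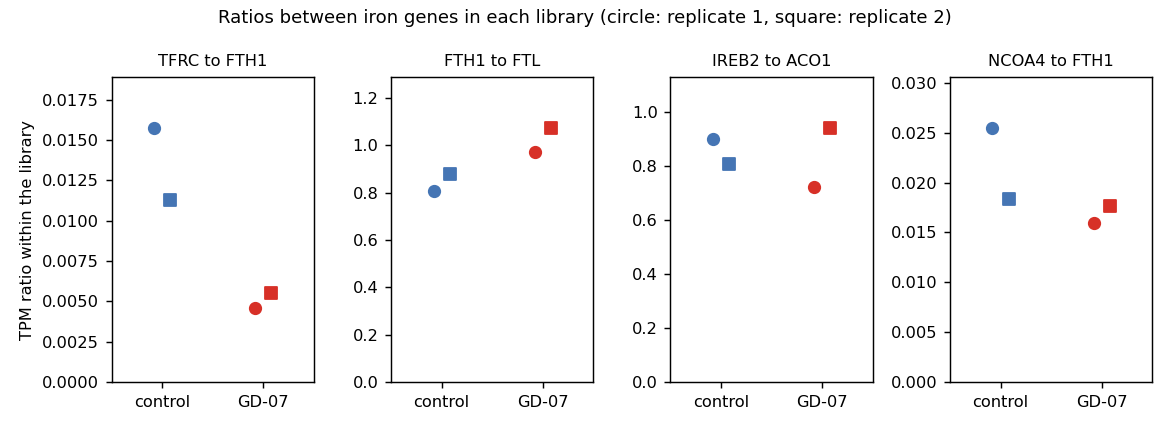
TPM ratios between pairs of iron genes within each library, on linear axes that start at 0, with blue for control, red for GD-07, circles for replicate 1 and squares for replicate 2. The ratio of TFRC to FTH1 is 0.0113 or more in the controls and 0.00550 or less with GD-07, whereas the ratio of IREB2 to ACO1 overlaps.

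The wider iron pathway was described by lists of named genes. Of 104 further iron genes in the table, 89 were kept for testing, of which 2 rose, 5 fell and 82 did not pass. These 7.87% stand beside 5.21% of all genes tested, with a median log2 fold change of -0.02 beside -0.04. The 13 kept genes of iron uptake and endosomal release included 3 that fell, TFRC, STEAP3 and TFR2, and none that rose, with a list median of 0.05. TFRC and STEAP3 are members already described, so that only TFR2 was new here. TFR2, the second transferrin receptor, known mainly from liver and erythroid cells, was at 19.4 and 19.4 TPM in control cells and 9.33 and 10.2 TPM in treated cells. Both transferrin receptors were thus lower in both GD-07 libraries. The log2 fold change of TFR2 was -0.92 ± 0.17 (limma adjusted p = 0.0276), and its call ended without control replicate 1 (0.0776). TF, transferrin itself, stayed under 1 TPM in every library.

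None of the 11 kept genes of storage, iron chaperones and ferritinophagy passed, with a median of 0.09 and 4 at an unadjusted p under 0.05 in limma. Over all genes tested 24.8% were under that unadjusted p. TAX1BP1, an autophagy receptor that takes part in ferritin turnover, was at 48.3 and 39.4 TPM in control cells and 59.8 and 61.7 TPM in treated cells (limma adjusted p = 0.111). PCBP4, a relative of the cytosolic iron chaperones PCBP1 and PCBP2, was at 88.1 and 81.5 TPM in control cells and 65.1 and 58.6 TPM in treated cells (limma adjusted p = 0.101). It passed without GD-07 replicate 1 (0.0309). None of the 12 kept genes of iron sensing passed, with a median of -0.17 and 1 at an unadjusted p under 0.05. In that list the BMP type I receptor ACVR1 had a value of -0.68 on the log2 scale (limma adjusted p = 0.10), and passed without GD-07 replicate 1 (0.0376), while ERFE, the hormone that lowers hepcidin, had a value of -0.44 (0.230). The iron exporter SLC40A1 (ferroportin), the only one of 4 export genes above the limit, was at 2.33 and 2.05 TPM in control cells and 2.57 and 3.26 TPM in treated cells (limma adjusted p = 0.435).

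In heme synthesis 1 of 12 kept genes fell and none rose, beside 3.19% lower and 2.02% higher over all genes tested. FECH, which inserts iron into protoporphyrin in the last step of heme synthesis, was at 19.8 and 15.3 TPM in control cells and 7.71 and 6.57 TPM in treated cells. Its log2 fold change was -1.18 ± 0.20 (limma adjusted p = 0.0214), and the other 11 did not pass, with a list median of 0.00. The call of FECH ended without control replicate 1 (0.0567). In heme transport and degradation 1 of 13 kept genes rose and none fell. HPX, hemopexin, which binds free heme in plasma, was at 5.85 and 3.76 TPM in control cells and 12.2 and 12.5 TPM in treated cells (log2 fold change 1.22 ± 0.22, limma adjusted p = 0.0263). The other 12 did not pass, and the list median was 0.21.

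Of 21 genes of mitochondrial iron import and iron-sulfur cluster assembly, 1 rose, none fell and 20 did not pass, with a median of 0.05. Over all genes tested 2.02% rose and 3.19% fell. The gene of this list that rose was HSCB, the co-chaperone that hands new clusters from ISCU to their carriers. It was at 21.3 and 22.1 TPM in control cells and 41.2 and 44.9 TPM in treated cells. Its log2 fold change was 0.96 ± 0.15 (limma adjusted p = 0.0205). Of 11 genes of cytosolic cluster assembly 3 fell, none rose and 8 did not pass, with a median of -0.22. NUBP1, a scaffold protein, was at 35.1 and 35.4 TPM in control cells and 21.9 and 22.3 TPM in treated cells (log2 fold change -0.65 ± 0.15, limma adjusted p = 0.0461). NDOR1, the reductase that feeds electrons to the pathway, was at 8.05 and 5.81 TPM in control cells and 3.11 and 3.20 TPM in treated cells (limma adjusted p = 0.0476). BOLA2, a partner of GLRX3, was at 266.9 and 292.3 TPM in control cells and 185.6 and 127.2 TPM in treated cells (limma adjusted p = 0.0391), but it has a near-identical gene copy with which reads may be shared.

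These 3 calls of cytosolic cluster assembly ended under several settings. NUBP1 did not pass when either control was left out (limma adjusted p = 0.224 and 0.169). NDOR1 did not pass without control replicate 1 (0.343) or without GD-07 replicate 2 (0.0607). BOLA2 did not pass without control replicate 2 (0.0535) or after median-ratio scaling (0.0741). Without limma's trend none of the 3 passed (0.0726, 0.0509 and 0.0734). After rescaling without mitochondrial and top 10 entries NUBP1 and NDOR1 did not pass (0.0682 and 0.0720), and after quantile normalization NUBP1 and BOLA2 did not (0.0521 and 0.0532). Among the 9 kept mRNAs reported to carry an iron-responsive element only TFRC fell, beside 3.19% of all genes tested. The other 8 did not pass, and the median was 0.18.

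**Figure D4:**
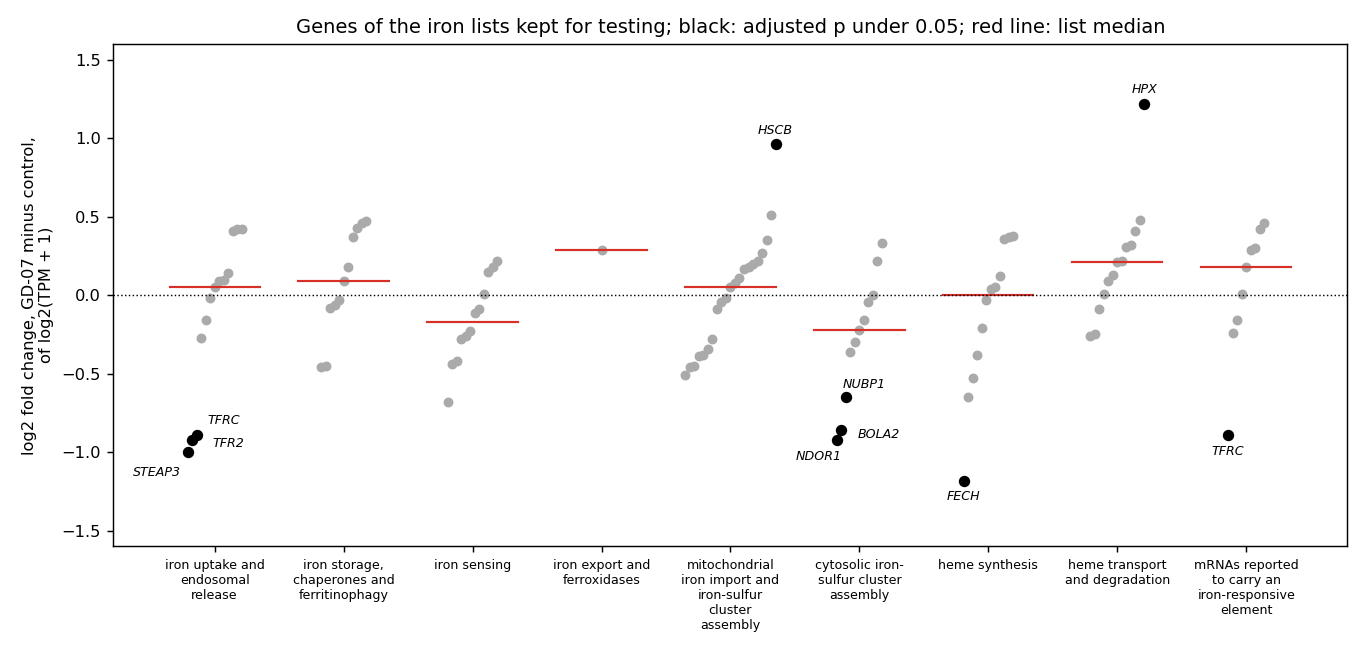
Log2 fold change (GD-07 minus control, on log2(TPM + 1)) of each kept gene of the iron lists, 1 point per gene, with black for genes at a limma adjusted p under 0.05 and a red line at each list median. The genes that passed stand at the edges of lists whose medians lie between -0.22 and 0.29, and TFRC appears in 2 lists.

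Genes whose 4 values, as log2(TPM + 1) minus the gene's own mean, lay nearest to those of 3 members were found among protein-coding and unmatched entries. They were GPR3, GAREM2 and RSU1 for TFRC (Euclidean distance over 4 libraries 0.0531, 0.0610 and 0.0710), ATP6V0B, CDC26 and LLGL2 for FTH1 (0.0288, 0.0424 and 0.0466), and ZNF358, SF3B6 and ZCCHC17 for FTL (0.0148, 0.0178 and 0.0184). With 4 libraries such likeness is a description only. Windows from 250 bases before to 50 after the start, from RefSeq on GRCh38.p14, were found for 7 members, 12 windows in all since some have several starts (TFRC, STEAP3, SLC11A2, FTL, NCOA4, IREB2 and ACO1). None of the 12 held CACGTG, the E-box to which MYC and MAX bind and which reads the same on both strands. Of all 35116 such windows 7.26% held it, so that few or no matches among 12 is near the background. Sites outside these windows or with other letters were not searched, and FTH1 and SLC39A14 had no window.

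**Figure D5:**
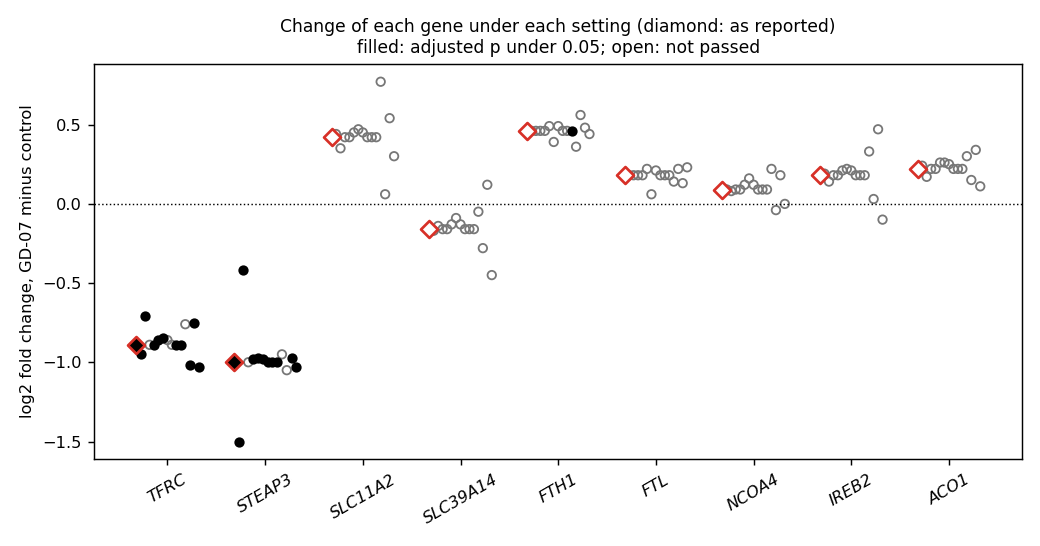
Log2 fold change of each gene under each setting tried, with a red-edged diamond for the value as reported and circles for the alternatives, filled where the limma adjusted p was under 0.05. All values of TFRC (-1.03 to -0.71) and STEAP3 (-1.50 to -0.42) lie below 0, all values of FTH1 (0.36 to 0.56) lie above it, and those of IREB2, NCOA4 and SLC39A14 cross it.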

How the data were processed

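The authors deposited TPM per gene symbol for 4 libraries (columns summing to 912781 to 918646). Their build was GRCh38 and the tools named were limma 3.60.4, Subread and kallisto, per the submitters' processing notes; which tool did what is not given in the sources used here. Per the labels' protocols, mRNA was enriched with oligo(dT) beads. The 13063 genes averaging 1 TPM or more were tested as log2(TPM + 1) with limma 3.58.1 in R 4.3.3 (trend, two-sided), p-values Benjamini-Hochberg adjusted over all of them. Errors of fold changes are moderated standard errors.

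The 9 members and the lists were chosen with earlier results of these data known. Besides the members and MYC, the text names every list gene that passed (otherwise the 2 with the smallest p), the 3 nearest genes to TFRC, FTH1 and FTL, and ferritin pseudogenes above 1 TPM; markers and TF were named outside that rule. Alternatives changed the pseudocount, filter, scaling, trend, replicate block and libraries. Leaving out 1 library assumes that the lone one varies like the other pair. Tested on simulated data of 13063 genes, 63.6% of 2-fold and 99.8% of 4-fold changes were recovered, and 5.08% of calls were false. The simulated noise was independent and normal, with the spread that limma had fitted, so these shares check the procedure and not the real calls. Changed genes were drawn only above about 5 TPM in the controls, a level that STEAP3 did not reach. No shift in composition was simulated. Coordinates come from GENCODE 29.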

Additional observations from a re-analysis of the deposited data

How the results depend on the processing

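Of the 9 iron genes, 2 passed as reported, 1 with a mean of at least 5 TPM (STEAP3 is then not tested), 1 after rescaling without mitochondrial and top 10 entries, 1 without limma's trend, and between 0 and 2 when 1 library was left out. Over all genes tested, 681 passed as reported, 432 after that rescaling, 385 without the trend, and 310 to 2217 with 1 library left out. For the iron lists together the count was 9, with 5 without the trend and 3 to 19 with 1 library left out. Where all entries above 0 were tested, limma called 0 genes, in the lists and members too (3970 at an unadjusted p under 0.05 and a smallest adjusted p of 0.219), so the calls depend on the filter. Signs turned, in uncalled values, with 1 library left out: IREB2 ranged from -0.10 (without GD-07 replicate 2) to 0.47, NCOA4 from -0.04 (control replicate 2 left out; -0.00083 with GD-07 replicate 2 left out) to 0.22, SLC39A14 from -0.45 to 0.12 (GD-07 replicate 1 left out), and the log2 ratio of IREB2 to ACO1 from -0.24 to 0.14 (GD-07 replicate 1 left out; 0.03 with control replicate 1 left out). The cause was not tested. Libraries with the same replicate number tended weakly to deviate in opposite directions (r = -0.279 across genes). With 2 libraries per group, crossing the numbers reverses that sign by construction. Nothing in the labels pairs the libraries. With the replicate number as a block 912 genes, 7 iron list genes and 2 members passed, and NUBP1 and NDOR1 did not (limma adjusted p = 0.0674 and 0.0603). With the numbers crossed, an alternative chosen after seeing the data, 2934 genes, 22 iron list genes and 3 members passed. The member added there was FTH1 (limma adjusted p = 0.0448), which passed under no other setting. TPM keeps no depth, so counting error, which limits STEAP3 and other low genes most, cannot be given.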
